A study of Mus musculus with 2 samples.

Results

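The 10 genes described here encode TGF-β1, its receptors, the Smad proteins that carry its signal and the Ski corepressors. They are *Tgfb1*, *Tgfbr1*, *Tgfbr2*, *Tgfbr3*, *Smad2*, *Smad3*, *Smad4*, *Smad7*, *Ski*, and *Skil*, chosen by symbol among the 48321 genes of the count tables. No rule on their values was used, but earlier results of these data were known. All 10 were listed in both tables, and all 10 passed the minimum of 10 counts summed over both libraries that was set for tests. RNA-seq was made of poly(A) RNA from sorted CD4- mature thymocytes of mice labelled MHC-II0:CD8ab Tg on the C57Bl/6 background, in 2 replicates. These mice lack MHC class II through loss of its I-Aβ chain, carry disrupted *Cd8a* and *Cd8b1* genes, and express CD8α and CD8β from cDNAs in the *Rosa26* locus once Cre driven by *Cd4* sequences has removed a stop cassette. Both libraries share all of these alleles. The labels give neither the age of the mice nor whether animals were pooled, so the spread between replicates may be in part technical. Sex-linked genes, given below, show that the 2 libraries come from different animals, which differ in sex. The sample titles name cells without either co-receptor whereas the cell type fields name CD8+ cells, and the population is named here as in the study's methods. The study set these cells against wild-type CD8 single-positive thymocytes, which were not analysed here, so that levels, their order and the spread between libraries are given, and no change with genotype.

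In TGF-β signaling, the ligand is secreted in a latent form and, once freed, binds the type II receptor, which then phosphorylates the type I receptor. The active type I receptor phosphorylates Smad2 and Smad3, which join Smad4 and enter the nucleus to regulate genes. Smad7 blocks the receptor, and Ski and SnoN, the product of *Skil*, hold Smad complexes in a repressed state. In the thymus, TGF-β is known for its part in the development of CD8 T cells, regulatory T cells and iNKT cells, and in naive T cells it restrains activation.

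Reads counted on genes numbered 16732644 in replicate 1 and 16245849 in replicate 2, or 40.6% and 41.2% of uniquely aligned reads. Levels are given in CPM, the usual scaling of a count to the total of reads on genes, and 3 counts, used as the floor of detection, were 0.179 and 0.185 CPM. Intervals given for single libraries are Wilson 95% confidence intervals and cover counting error only. Defining genes of αβT cells were high, with *Lck* at 811 ± 64.4 CPM (SD, n = 2), *Cd3g* at 589 ± 44.3 CPM (SD, n = 2), and *Trac* at 417 ± 24.0 CPM (SD, n = 2). All 5 markers of mature thymocytes were above 1 CPM, among them *Il7r* and *S1pr1*. Of the 6 markers of double-positive thymocytes 2 reached 1 CPM in both libraries. These were *Dntt* at 13.2 ± 0.282 CPM and *Aqp11* at 2.58 ± 0.526 CPM (SD, n = 2 each). The other 4 did not, among them *Cd4*, which the cells were sorted to lack, at 0.717 and 1.66 CPM. Both γδT cell markers listed reached 1 CPM in both libraries, with *Trdc* at 5.32 and 7.14 CPM, as did 1 of 3 endothelial markers, *Pecam1* at 76.9 and 67.4 CPM, and 1 of 7 stromal markers, *Epcam* at 2.99 and 3.26 CPM. None of the B cell (0 of 5) or erythroid (0 of 4) markers did, and *Kdr*, *Hba-a1*, and *Hbb-bs* had 0 counts in both. The libraries stood apart in sex-linked genes, with *Xist* at 2.03 and 1555 CPM and *Ddx3y* at 146 and 0 CPM in replicates 1 and 2. What part sex has in other differences between the libraries was not tested. *Cd8a* was at 158 and 171 CPM, but its counts do not separate the inserted cDNA from the disrupted gene.

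Promoter sequence was available in the RefSeq table of GRCm38.p6 for 5 of the members, as windows from 250 bases before to 50 bases after the start. *Tgfbr3*, *Smad2*, *Smad4*, *Smad7*, and *Skil* had no entry. G and C made up 85.3% of the window of *Ski*, 77.0% of that of *Tgfb1*, 74.7% of the first window of *Tgfbr1*, 67.7% of that of *Smad3*, and 59.0% of that of *Tgfbr2*, whereas the median of all 32851 windows was 52.7%. GGGCGG, the core of the GC box bound by Sp1, was searched on both strands and occurred in 4 of these 5 windows and in 35.7% of all windows. TATAAA occurred in 0 of the 5 and in 13.6% of all. CAGAC, which holds the short element bound by Smad3 and Smad4, occurred in 1 of the 5, that of *Tgfbr2*, and in 49.6% of all windows, while the palindrome GTCTAGAC was in 0 of the 5 and in 0.213% of all. The second window of *Tgfbr1*, at chr4:47385966-47386265, had 52.0% G and C, 1 CAGAC, and 0 matches to the other 3 motifs. To show where this GC box core lies, the stretch of 30 bases upstream of the start with most GGGCGG matches follows for the 4 genes that hold it, with the matches to either strand in capitals.
Tgfb1 (chr7:25686964-25686993, plus strand): cgGGGCGGcttcaaaacccccgCCGCCCca
Tgfbr1 (chr4:47353077-47353106, plus strand): ccagggccccgcGGGCGGggctctcggcta
Ski (chr4:155222604-155222633, minus strand): gGGGCGGtcgtggccgcggtcgcGGGCGGc
Smad3 (chr9:63758211-63758240, minus strand): ccggcagcgaggGGGCGGcgactgcgctgg
The stretch of *Tgfb1* begins 38 bases before the start and carries the motif once on each strand. These are matches of letters and not measured binding sites.

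All 10 members are protein-coding genes of the GENCODE M21 annotation of GRCm38, the build to which the reads were aligned (mm10). *Tgfb1* lies on chromosome 7 (25687002 to 25705077, plus strand). The receptor genes are on 3 chromosomes, with *Tgfbr1* on chromosome 4 (47353222 to 47414931, plus strand), *Tgfbr2* on chromosome 9 (116084293 to 116175360, minus strand), and *Tgfbr3* on chromosome 5 (107106570 to 107289629, minus strand). *Smad3* is also on chromosome 9 (63646767 to 63757994, minus strand). The other 3 Smad genes fall within 2.67 Mb of chromosome 18, with *Smad4* (73639009 to 73703780, minus strand) followed by *Smad7* (75367529 to 75395935, plus strand) and *Smad2* (76241580 to 76310963, plus strand). *Ski* is on chromosome 4 (155154075 to 155222592, minus strand) and *Skil* on chromosome 3 (31095058 to 31122577, plus strand). Exact matches of 50 bases, the length of the reads, were sought among annotated transcripts. Matches with mismatches and sequence outside annotated transcripts were not examined. No 50-base stretch of one member's transcripts occurs in those of another member, *Smad2* and *Smad3* included, and 6 of the 10 share none with any gene. The largest share was 3.85% in *Tgfbr3*, where *Gm43422* overlaps 297 bases of its exons on the same strand. *Gm43422* itself had 12 and 15 counts. *Tgfbr2* shared 0.770% of its stretches, with 326 other genes in all. No exon of a member overlaps an exon on the opposite strand.

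The ligand was found at a steady level. *Tgfb1*, which encodes the TGF-β of T cells and most other blood cells, had 2173 counts in replicate 1 and 2004 in replicate 2. Its level was 130 CPM (interval 125 to 135) in replicate 1 and 123 CPM (interval 118 to 129) in replicate 2, or 127 ± 4.60 CPM (SD, n = 2). The intervals of the libraries overlap. In sorted bulk cells, a larger share of cells that express a gene cannot be told apart from more RNA per cell. Among genes of other cells that are rich in TGF-β1, the platelet genes *Pf4* and *Ppbp* had 0 counts in both libraries and the third platelet marker, *Itga2b*, was at 1.55 and 2.09 CPM. The myeloid gene *Lyz2* had 0 and 2 counts, and *Adgre1* had 0 and 4. Of the 7 markers of myeloid and dendritic cells 2 reached 1 CPM in both libraries, *Csf1r* at 9.74 and 11.8 CPM and *Itgam* at 2.03 and 1.11 CPM, and the list summed to 12.4 and 13.8 CPM. All 5 markers of regulatory T cells reached 1 CPM, with *Foxp3* at 12.1 and 12.4 CPM, and summed to 111 and 120 CPM, of which *Ikzf2* made up 91.7 and 99.7 CPM. Their part in the level of *Tgfb1* was not tested. The other ligands of the subfamily were lower. *Tgfb3* had 23 and 28 counts, or 1.37 and 1.72 CPM, and *Tgfb2*, from 3 and 5 counts, was near the floor at 0.179 and 0.308 CPM.

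**Figure D1:**
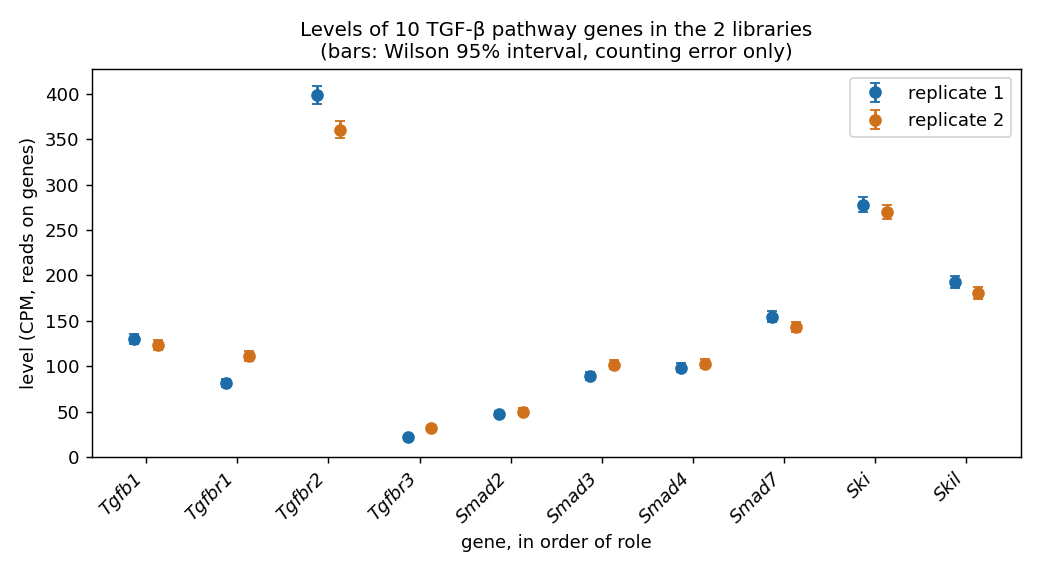
Level of each of the 10 genes in CPM (vertical axis, linear from 0) in replicate 1 and replicate 2, with Wilson 95% intervals for counting error. The intervals of the 2 libraries are apart for *Tgfbr1*, *Tgfbr2*, *Tgfbr3*, and *Smad3* and overlap for the other 6 genes.

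Among the receptors, the type II chain was far above its partners. *Tgfbr2*, which encodes the chain that binds the ligand first, had 6676 and 5856 counts, or 399 CPM (interval 390 to 409) in replicate 1 and 360 CPM (interval 351 to 370) in replicate 2. *Tgfbr1*, which encodes the type I receptor kinase ALK5, had 1354 and 1806 counts, or 80.9 CPM (interval 76.7 to 85.3) and 111 CPM (interval 106 to 116). *Tgfbr3*, which encodes betaglycan, a co-receptor that presents the ligand, had 362 and 509 counts, or 21.6 CPM (interval 19.5 to 24.0) and 31.3 CPM (interval 28.7 to 34.2). Replicate 1 was thus the higher library for *Tgfbr2* and the lower one for *Tgfbr1* and *Tgfbr3*. To compare genes with each other, counts were divided by the length of all annotated exons of the gene, merged, which gives CPM per kb of exon (RPKM on reads on genes). On this scale *Tgfbr2* stood at 46.4 ± 3.33 RPKM (SD, n = 2), *Tgfbr1* at 14.7 ± 3.27 RPKM (SD, n = 2), and *Tgfbr3* at 4.05 ± 1.05 RPKM (SD, n = 2). Per kb, *Tgfbr2* was 3.94 times *Tgfbr1* in replicate 1 and 2.59 times in replicate 2, and it was 14.7 and 9.20 times *Tgfbr3*. The values of these 3 genes did not overlap between the libraries. With the mean length of the annotated protein-coding transcripts, some of which are partial, the ratio of *Tgfbr2* to *Tgfbr1* was 2.15 in place of 3.26.

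The receptor-regulated Smads were unequal. *Smad3* had 1485 and 1650 counts, or 88.7 CPM (interval 84.3 to 93.4) in replicate 1 and 102 CPM (interval 96.8 to 107) in replicate 2. *Smad2* had 790 and 812 counts, or 47.2 CPM (interval 44.0 to 50.6) and 50.0 CPM (interval 46.7 to 53.5). Per kb, *Smad3* was at 17.2 ± 1.64 RPKM (SD, n = 2) and *Smad2* at 5.53 ± 0.223 RPKM (SD, n = 2), and their ratio was 2.98 in replicate 1 and 3.22 in replicate 2. The ratio stayed above 1 with every length, at 2.60 with the mean transcript length and 1.96 with no length. *Smad4*, which encodes the partner shared with the BMP branch, had 1648 and 1670 counts, or 98.5 and 103 CPM, with overlapping intervals. It was at 27.1 ± 0.820 RPKM (SD, n = 2), or 1.20 ± 0.0618 times (SD, n = 2) the sum of *Smad2* and *Smad3*. This ratio depends on the length, and was 0.459 with the mean transcript length and 0.701 with no length.

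Of the inhibitors of the pathway, *Ski* and *Smad7* were at ranks 1 and 3 of the members per kb and *Skil* at rank 6. *Smad7*, the inhibitory Smad that is itself induced by TGF-β, had 2586 and 2324 counts, or 155 CPM (interval 149 to 161) in replicate 1 and 143 CPM (interval 137 to 149) in replicate 2. *Smad6*, the other inhibitory Smad, which acts mainly on the BMP branch, had 0 counts in both libraries, which allows at most 0.179 and 0.185 CPM. *Ski* had 4652 and 4388 counts, or 278 CPM (interval 270.1 to 286) and 270.1 CPM (interval 262 to 278). *Skil* had 3222 and 2940 counts, or 193 CPM (interval 186 to 199) and 181 CPM (interval 175 to 188). All 3 genes were slightly higher in replicate 1, with intervals that overlap between the libraries. Per kb they stood at 32.9 ± 1.80 RPKM for *Smad7*, 49.3 ± 1.01 RPKM for *Ski*, and 19.3 ± 0.845 RPKM for *Skil* (SD, n = 2 each). The corepressors together were 3.27 times the sum of *Smad2* and *Smad3* per kb in replicate 1 and 2.80 times in replicate 2, and *Smad7* was 1.60 and 1.32 times that sum. With the mean transcript length these means fell to 1.25 for the corepressors and 0.990 for *Smad7*. *Ski* was 2.56 ± 0.0600 times *Skil* (SD, n = 2) per kb, against 1.79 with the longest transcript and 1.07 with the mean transcript length.

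**Figure D2:**
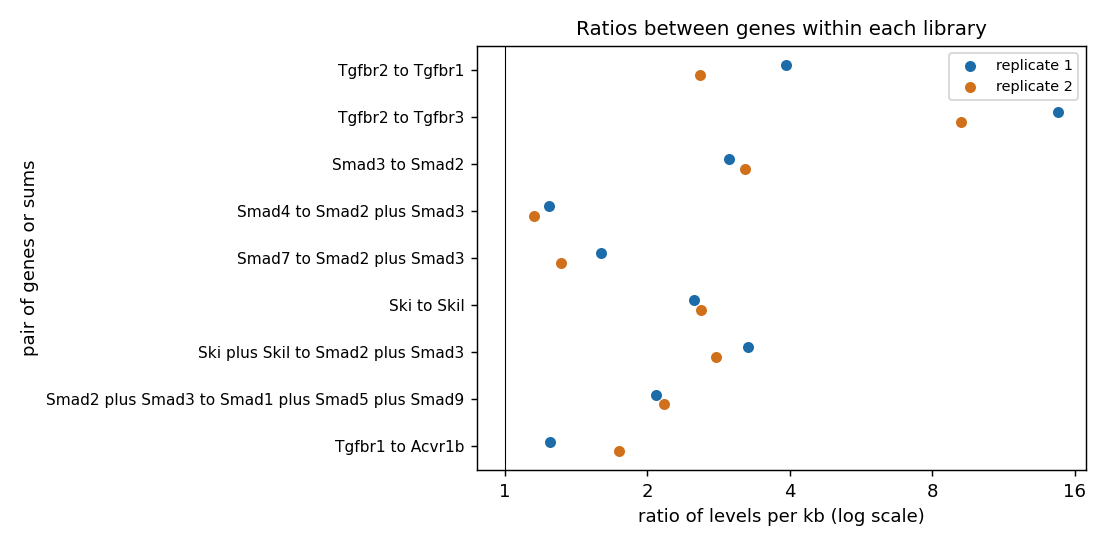
Ratios of levels per kb within each library (horizontal axis, log scale), for pairs of genes or sums, with 1 point per library. All points lie to the right of 1, and among the ratios plotted the libraries differ most for *Tgfbr2* to *Tgfbr3* (14.7 and 9.20) and *Tgfbr2* to *Tgfbr1* (3.94 and 2.59).

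The order of the members per kb was *Ski*, *Tgfbr2*, *Smad7*, *Smad4*, *Tgfb1*, *Skil*, *Smad3*, *Tgfbr1*, *Smad2*, and *Tgfbr3*, and it was the same in both libraries. The highest was 12.2 times the lowest. Of the 9 neighbouring pairs in this order, 7 had values that did not overlap between the libraries, while *Ski* and *Tgfbr2* overlapped, as did *Smad3* and *Tgfbr1*. With 2 libraries an unpaired exact permutation test of 2 values against 2 cannot go below p = 0.333. Pairing the values by library would not lower this limit, so no pair was tested. *Smad2* and *Tgfbr3* were at ranks 9 and 10 with every length tried and with none. The upper ranks depended on the length. The protein-coding transcript of *Tgfb1* covers 2175 bases and its merged exons 5042, and with the longest protein-coding transcript as length *Tgfb1* moved from 25.1 to 58.2 RPKM and from rank 5 to rank 1. With the mean transcript length *Smad7* was at rank 1, and with no length *Tgfbr2* was.

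**Figure D3:**
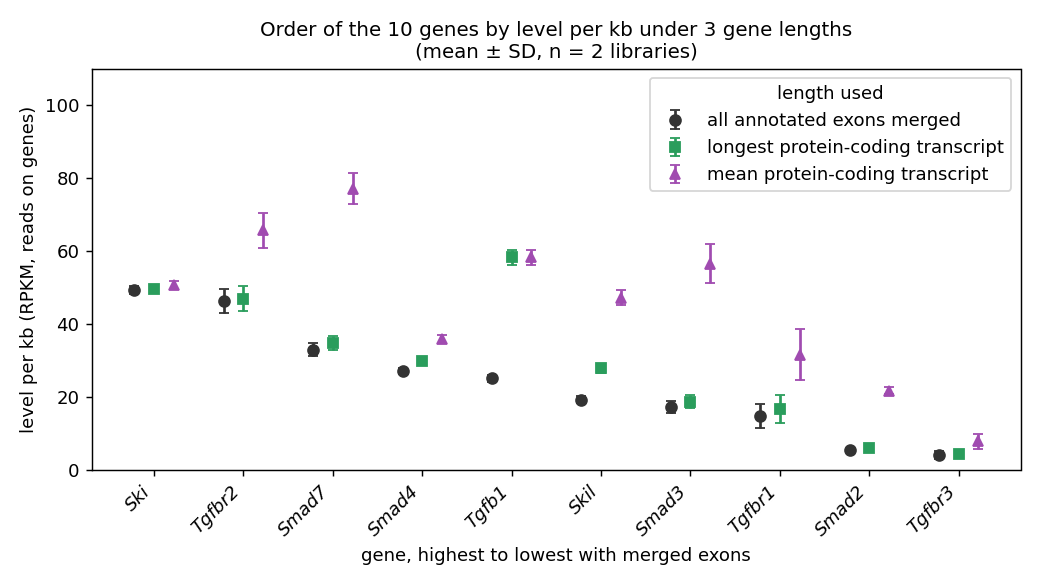
Level per kb (vertical axis, RPKM of reads on genes, mean ± SD of 2 libraries) of the 10 genes with 3 definitions of gene length. *Tgfbr3* and *Smad2* are lowest with each definition, and from the merged exons to the longest transcript *Tgfb1* changes most (25.1 to 58.2 RPKM).

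Among all 15358 genes with at least 10 counts and an annotated length, *Ski* was above 94.8% per kb, *Tgfbr2* above 94.4%, *Smad7* above 91.3%, *Smad4* above 88.9%, and *Tgfb1* above 87.9%. *Skil* was above 83.9%, *Smad3* above 82.0%, *Tgfbr1* above 79.0%, *Smad2* above 56.0%, and *Tgfbr3* above 49.5%. The median of the members was 22.2 RPKM, beside 4.15 RPKM for all these genes and 5.71 RPKM for the protein-coding ones. The members were above the median of the protein-coding genes in 8 of 10 cases, the exceptions being *Smad2* and *Tgfbr3*. All 10 were at 1 CPM or more in both libraries, as were 26.2% of all genes listed.

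The spread between the libraries was then examined for each member, with a two-sided exact binomial test and Benjamini-Hochberg adjustment over all 15949 genes with at least 10 counts. This test compares these libraries, not conditions. At an adjusted p under 0.05 and a difference of at least 2-fold, none of the members (0 of 10) and 1.52% of all genes were called. Of these 242 genes 150 were higher in replicate 2, against 98 of 197 with library sizes scaled by TMM. Without a minimum fold, 5 of the 10 members passed, beside 16.3% of all genes and 26.8% of the 7756 genes with at least 500 counts summed, a depth that every member reached. *Tgfbr1* was higher in replicate 2, with a log2 ratio of 0.46 and an adjusted p from the exact binomial test of 7.22e-17. *Tgfbr3* was higher in replicate 2 by 0.53 on the log2 scale (exact binomial test, adjusted p = 2.12e-06), and *Smad3* by 0.19 (exact binomial test, adjusted p = 0.00220), though *Smad3* did not pass with TMM library sizes (exact binomial test, adjusted p = 0.139). *Tgfbr2* was lower in replicate 2, with a log2 ratio of -0.15 (exact binomial test, adjusted p = 5.20e-07), as was *Smad7* with a log2 ratio of -0.11 (exact binomial test, adjusted p = 0.0444). Higher in replicate 2 at any size were 13.5% of all genes, and higher in replicate 1 were 2.82%. The other 5 members had log2 ratios between -0.09 and 0.08, and that of *Smad4* changed sign with TMM, from 0.06 to -0.02. The balance of directions depended on the scaling. Of the 5 members that passed 3 were higher in replicate 2 and 2 were lower, whereas with TMM 2 were higher, *Tgfbr1* and *Tgfbr3*, and 5 were lower, as *Tgfb1*, *Ski*, and *Skil* then passed too. Over all genes, 5.16% were higher in replicate 2 and 5.39% higher in replicate 1 with TMM. The median absolute log2 ratio of the members was 0.10, beside 0.17 over all genes tested, which include many with few counts. Over the 5719 genes with the most counts summed, which include every member but *Tgfbr3*, it was 0.097. The members were thus not steadier than genes of high counts.

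The binomial test allows for counting error alone. Variation between animals was allowed for as well by edgeR's exact test at an assumed coefficient of 0.1. The coefficient estimated from these same 2 libraries was 0.105. The test thus measures each gene against a spread near that of the libraries compared, so few genes can pass. By edgeR's exact test 0 of the 10 members passed with or without the minimum fold. Of all genes 0.376% passed with it and 0.464% without it. At an unadjusted p under 0.05, 2 of the 10 members were found by this test, beside 5.17% of all genes, and 6 by the exact binomial test, beside 27.7%. *Tgfbr1* and *Tgfbr3* were the members with the widest spread, with coefficients of variation of 22.3% and 25.9%, while that of *Ski* was 2.04%. In replicate 2, where they were higher, the innate memory-like marker *Eomes* was also higher, at 355 CPM against 196 CPM. The genes of the surface markers CD44 and CD122 differed less, with *Cd44* at 116 against 92.9 CPM and *Il2rb* at 593 against 523 CPM. *Eomes* was chosen after its values were seen. Neither the part of these markers in the difference nor that of sex was tested.

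**Figure D4:**
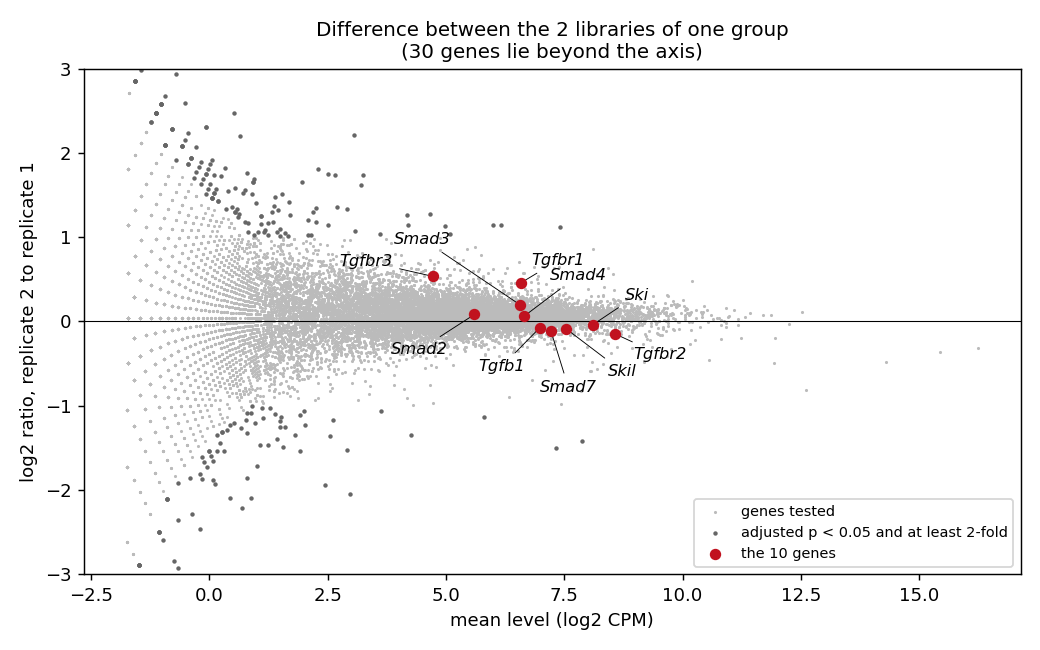
Log2 ratio of replicate 2 to replicate 1 (vertical axis) against the mean level in log2 CPM (horizontal axis) for 15949 genes, with the 10 genes in red and the 242 genes that differed at least 2-fold at an adjusted p under 0.05 in dark grey. *Tgfbr3* (0.53) and *Tgfbr1* (0.46) lie highest among the 10, and 30 genes lie beyond the axis.

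The rest of the superfamily was examined through lists by role, which hold 101 genes of the count tables besides the members. Of these, 64 were at 1 CPM or more in both libraries, and 7 had 0 counts in both. Between the libraries, 71 were tested and 3 were called, beside 1.52% of all genes, and 2 of the 3 were higher in replicate 2. Without a minimum fold 16 of the 71 passed, beside 16.3% of all genes. Ligands of the activin, BMP and GDF groups were mostly not found, with 2 of 13 at 1 CPM or more. *Gdf11*, a ligand close to myostatin, was at 26.6 ± 3.94 CPM (SD, n = 2) and *Bmp7* at 6.64 ± 0.419 CPM (SD, n = 2), and *Bmp1*, which encodes a protease in spite of its name, had 1 and 9 counts.

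For release of the latent ligand, 8 of 13 genes reached 1 CPM in both libraries. *Nrros*, which encodes LRRC33, a protein that tethers latent TGF-β on the cell surface, was at 108 and 101 CPM. *Furin*, the protease that cleaves the TGF-β precursor, was at 59.9 and 63.5 CPM, and *Itgav*, the integrin αv chain, at 42.3 and 40.9 CPM. *Lrrc32*, the related tether GARP of regulatory T cells, singled out after its values were seen, had 29 and 17 counts, or 1.73 and 1.05 CPM. Per kb *Nrros* was 69.9 times *Lrrc32* in replicate 1 and 108 times in replicate 2. *Ltbp3*, a latent TGF-β binding protein, was called as higher in replicate 2, with 58 counts against 26 and a log2 ratio of 1.19 (exact binomial test, adjusted p = 0.00346), but not in edgeR's exact test (adjusted p = 0.305).

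Most receptors of the activin and BMP branches were low. Among the type I receptors, 2 of 7 reached 1 CPM, *Tgfbr1* and *Acvr1b*, the activin receptor ALK4, which was at 43.9 and 43.1 CPM. Per kb *Tgfbr1* was 1.25 times *Acvr1b* in replicate 1 and 1.74 times in replicate 2, and with the mean transcript length the mean ratio was 3.21. *Bmpr1a*, a BMP type I receptor, had 15 and 3 counts and was called as lower in replicate 2, with a log2 ratio of -2.10 (exact binomial test, adjusted p = 0.0476), though not in edgeR's exact test (adjusted p = 0.514). *Bmpr1b* had 0 counts in both libraries. Among the type II receptors, *Acvr2a* for activin was at 7.48 ± 1.53 CPM (SD, n = 2) and *Bmpr2* for BMP at 6.56 ± 1.79 CPM (SD, n = 2). *Acvr2b*, another activin receptor, had 6 and 4 counts. Per kb *Acvr2a* and *Bmpr2* were at 1.31 ± 0.269 and 0.365 ± 0.0997 RPKM (SD, n = 2 each), beside 46.4 RPKM for *Tgfbr2*.

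The list of co-receptors and decoys also held *Fkbp1a*, whose product binds and holds the type I receptor inactive, at 99.9 and 99.8 CPM. *Fkbp1a* is counted again below among the anchors, partners and phosphatases. *Eng*, which encodes endoglin, a relative of betaglycan, was at 19.1 and 31.8 CPM. Like *Tgfbr3*, it was higher in replicate 2 beyond counting error, with a log2 ratio of 0.73 (exact binomial test, adjusted p = 2.58e-11), but not in edgeR's exact test (adjusted p = 0.183). *Tdgf1*, which encodes the Nodal co-receptor Cripto, differed most among the genes of the lists that were called, with 49 counts in replicate 1 and 222 in replicate 2 and a log2 ratio of 2.21 (edgeR's exact test, adjusted p = 1.29e-10).

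The Smads of the BMP branch were uneven. *Smad5* was at 59.0 and 65.7 CPM, and per kb at 8.40 ± 0.638 RPKM (SD, n = 2). *Smad1* and *Smad9*, given here to complete the family, had 239 and 225 counts and 2 and 2 counts. The sum of *Smad2* and *Smad3* was 2.09 times that of *Smad1*, *Smad5*, and *Smad9* per kb in replicate 1 and 2.17 times in replicate 2, with a mean of 4.88 when the mean transcript length was used. Of 6 corepressors 5 reached 1 CPM, *Ski* and *Skil* among them, while *Dach1* had 0 counts in both libraries.

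**Figure D5:**
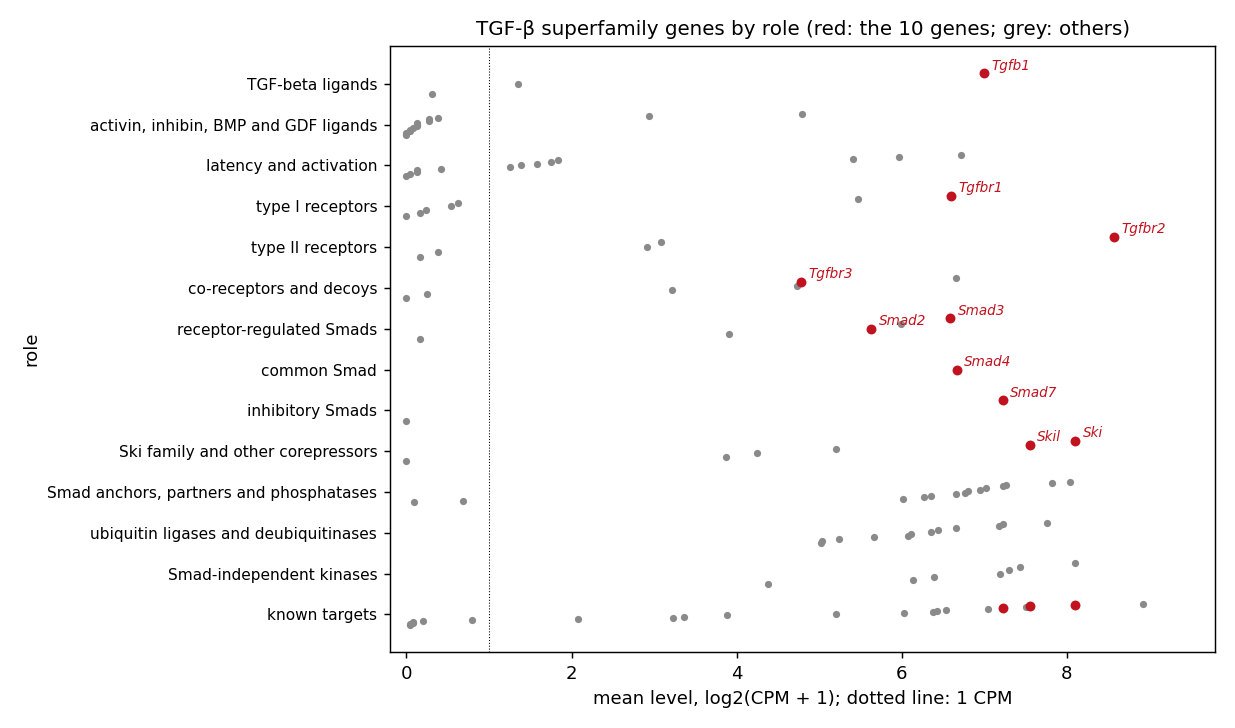
Mean level over 2 libraries as log2(CPM + 1) (horizontal axis) of the genes of 14 lists by role (vertical axis, points spread within a role), with the 10 genes in red and others in grey, and 1 CPM as a dotted line. Ligands and receptors other than the red genes lie mostly at the left, with 2 of 13 activin, BMP and GDF ligands at 1 CPM or more, while all 12 ubiquitin ligases and deubiquitinases and all 7 genes of the Smad-independent arm lie to the right of the line.

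Genes that act on Smads after the receptor were broadly found. Of 14 anchors, partners and phosphatases 12 reached 1 CPM, led by the transcription factor *Foxo1* at 267 and 259 CPM, the acetyltransferase *Ep300* at 227 and 222 CPM, and the phosphatase *Ctdsp2* at 147 and 159 CPM. *Zfyve9*, which encodes the anchor SARA that brings Smad2 and Smad3 to the receptor, was one of the other 2, with 8 and 12 counts, and was named after its values were seen. All 12 ubiquitin ligases and deubiquitinases listed were found, with the deubiquitinase *Usp9x* at 215 ± 1.92 CPM, *Smurf2*, the ligase recruited by Smad7, at 149 ± 15.3 CPM, and *Usp4* at 143 ± 5.74 CPM (SD, n = 2 each). *Smurf2* was lower in replicate 2, with a log2 ratio of -0.21 (exact binomial test, adjusted p = 1.03e-05), but not in edgeR's exact test (adjusted p = 1). In all, 4 of these 12 genes passed the exact binomial test at any size, beside 16.3% of all genes and 26.8% of those with at least 500 counts summed. The other 3 were higher in replicate 2, as were 13.5% of all genes, against 2.82% higher in replicate 1. Their log2 ratios were 0.25 for *Smurf1*, 0.24 for *Uchl5*, and 0.19 for *Usp11*, and none of the 3 passed edgeR's exact test. These 3 were not tested with TMM library sizes without a minimum fold. All 7 genes of the Smad-independent arm were found, with *Rhoa* at 274 ± 6.20 CPM, *Rock1* at 171 ± 4.82 CPM, and *Tab2* at 156 ± 10.7 CPM (SD, n = 2 each).

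Of the 21 genes listed as targets of TGF-β or BMP Smads, 15 reached 1 CPM, including the members *Smad7*, *Ski*, and *Skil*. *Itgae*, which encodes the integrin CD103 that TGF-β induces on CD8 T cells, was at 539 and 432 CPM in the respective replicates. Per kb it was at 106 ± 16.6 RPKM (SD, n = 2), and thus above each of the members on the merged-exon scale. It was lower in replicate 2, with a log2 ratio of -0.32 (exact binomial test, adjusted p = 5.48e-42), but not in edgeR's exact test (adjusted p = 1). Of 16 targets tested, 6 passed the exact binomial test at any size. Beside them stood 16.3% of all genes and 26.8% of those with at least 500 counts summed. Of the 6, *Itgae* and *Smad7* were lower in replicate 2. The other 4 were higher, namely *Cdh1*, *Id3*, *Pmepa1*, and *Cdkn1b*, with log2 ratios of 0.37, 0.36, 0.25, and 0.12. None of the 6 passed edgeR's exact test. With this scaling 13.5% of all genes were higher in replicate 2 and 2.82% higher in replicate 1. Targets other than the members were not tested with TMM library sizes without a minimum fold. Targets under 1 CPM in at least 1 library included *Id1*, *Cdkn1a*, *Tgfbi*, *Cdkn2b*, and *Ctgf*, named after their values were seen. *Id1*, a target of the BMP branch, had 1 and 4 counts, and *Ctgf*, a TGF-β target of many non-lymphoid cells, had 0 and 1.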

How the data were processed

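RNA-seq of CD4- mature thymocytes was analysed in 2 replicates of 1 group. The authors aligned single-end reads to mm10 with TopHat 2.1.1 and deposited raw counts per gene from HTSeq 0.6.1. The annotation and strand setting are not given in the sources used here, so sense and antisense reads may not be separated. Reads aligned to several places were not counted. CPM used the total on genes. Lengths, exons and transcripts came from GENCODE M21, in which 46294 of 48321 symbols matched a single gene. Log2 ratios had 0.5 counts added to each library. The exact binomial test was run in scipy 1.17.1 with adjustment in statsmodels 0.14.6, and edgeR 4.0.16 and DESeq2 1.42.0 served as alternatives (Python 3.11.15, R 4.3.3). The binomial test was tested on simulated counts of 48321 genes, where it found all 200 genes given a 4-fold change and 2 others. These counts held counting error alone, as the test assumes, so this check does not cover variation between animals.

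The members and lists were chosen with earlier results of these data known. Named genes were the members, the 3 of each list with the highest mean CPM, those called between the libraries, and marker genes at 0, and a few that this rule names are not reported here. *Rnf12*, *Ccn2*, *Trgc1*, and *Trgc2* were in the lists but are not listed under these symbols. Genes most like a member in pattern were not sought, since 2 libraries give a single ratio per gene.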

Additional observations from a re-analysis of the deposited data

How the results depend on the processing

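Depth was no limit for the members, of which the lowest had 871 counts summed, but 2 libraries limit the precision of each SD, and gene lengths rest on an annotation that may not be that of the counting. No paired analysis of conditions was possible because the series holds a single group. No mean level of a member moved by more than 1 SD when library sizes came from TMM or DESeq2, or when a replicate was dropped, which in this design could not move it further. With totals that leave out the 393 genes of mitochondria and ribosomal RNA, the mean level rose by more than 1 SD to 148 CPM for *Tgfb1*, 444 for *Tgfbr2*, 56.7 for *Smad2*, 111 for *Smad3*, 117 for *Smad4*, 174 for *Smad7*, 320.1 for *Ski*, and 218 for *Skil*.

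With the longest protein-coding transcript as length, the rank became 1 for *Tgfb1*, 2 for *Ski*, 3 for *Tgfbr2*, 4 for *Smad7*, and 5 for *Smad4*. With the mean transcript length it became 1 for *Smad7*, 3 for *Tgfb1*, 4 for *Smad3*, 5 for *Ski*, and 7 for *Smad4*. With no length it became 1 for *Tgfbr2*, 2 for *Ski*, 3 for *Skil*, 4 for *Smad7*, 6 for *Smad4*, 7 for *Tgfbr1*, and 8 for *Smad3*. Ratios that moved by more than 1 SD were as follows. With the mean transcript length they were 2.15 for *Tgfbr2* to *Tgfbr1*, 2.60 for *Smad3* to *Smad2*, 0.459 for *Smad4* and 0.990 for *Smad7* to *Smad2* plus *Smad3*, 1.07 for *Ski* to *Skil*, 1.25 for the corepressors to *Smad2* plus *Smad3*, 4.88 for *Smad2* plus *Smad3* to the BMP Smads, and 3.21 for *Tgfbr1* to *Acvr1b*. With no length the corresponding values were 1.96 for *Smad3* to *Smad2*, 0.701 for *Smad4*, 1.04 for *Smad7*, 1.47 for *Ski* to *Skil*, 1.88 for the BMP Smads, and 2.21 for *Acvr1b*. With the longest transcript they were 1.79 for *Ski* to *Skil* and 1.87 for the BMP Smads.

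Between the libraries, 242 genes were called, 150 of them higher in replicate 2, against 98 of 197 with TMM or DESeq2 library sizes. With a minimum of 100 counts 55 were called, with edgeR's exact test 60, and, in settings chosen after seeing the data, 2596 with no minimum fold and 74 with edgeR's exact test and no minimum fold. Of the members 0 were called under every alternative with a minimum fold, 5 with no minimum fold, and 7 with TMM library sizes and no minimum fold, a setting also chosen after seeing the data. The largest log2 ratio of a member, 0.53 for *Tgfbr3*, is well short of 2-fold. The alternatives with a minimum fold could therefore hardly change the 0. Of the other pathway genes 3 were called, against 1 with a minimum of 100 counts, 1 with edgeR's exact test with or without a minimum fold, and 16 with no minimum fold. The ratio of *Smad4* changed sign, to -0.015 with TMM and -0.014 with DESeq2 library sizes. The adjusted p of *Smad3* from the exact binomial test was 0.139 with TMM and 0.135 with DESeq2 library sizes, and with TMM those of *Tgfb1*, *Ski*, and *Skil* came under 0.05, at 0.0111, 0.00196, and 0.000179. The adjusted p of *Smad7* was 0.0667 with a minimum of 1 count. At least 5 CPM was reached by 1 of the TGF-β ligands and 3 of the latency genes, against 2 and 8 at 1 CPM.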
